A study of Mus musculus with 18 samples.

Results

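The libraries described here carry the second of the study's Gstt1 hairpins, Gstt1 shRNA 2, each set against the NT control library of its own line. They were chosen as every library whose title ends in Gstt1 shRNA 2, together with the NT control of the same line and culture set, which gave 4 pairs and 8 of the 18 libraries in all. The lines are G45-2, 6-3 and 42-2, grown from liver metastases, and 42-3, grown from a lung metastasis. They are tumour cells of mouse pancreatic ductal adenocarcinoma. The genotype label is the same in all 8 libraries, so that controls and knockdowns share its alleles, p48 and floxed Sirt6 among them. p48 (Ptf1a) is active in the pancreas and drives Cre there in this kind of model. Cells received lentivirus with NT control or Gstt1 shRNA 2, were kept in puromycin for 48 h, and were collected after being split once. Each culture set gave 1 library per hairpin, so a p-value here measures the spread between 4 line pairs, with no repeat of a hairpin within a set.

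Gstt1 is a theta class glutathione transferase, an enzyme that joins the thiol tripeptide glutathione to electrophilic compounds, including small halogenated molecules and products of lipid peroxidation. It belongs to a small gene family with Gstt2, Gstt3 and Gstt4, and other transferase classes (alpha, mu, pi, omega, microsomal) carry out related reactions. An shRNA is processed in the cell into a short RNA that directs the cleavage of a matching messenger, so the level of the Gstt1 messenger is the direct check of the hairpin.

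Values are CPM, the reads of a gene scaled to the reads of its library. Differences are log2(CPM + 1) of shRNA 2 minus that of its own control, averaged over the 4 pairs, with the standard error (SE) of a limma fit that has the line as a block. Library totals were 8411436 to 17359905 reads, and 3 reads correspond to 0.173 to 0.357 CPM. Of 11728 genes with at least 1 CPM in at least 4 of the 8 libraries, 0 (0%) passed a Benjamini-Hochberg adjusted p of 0.05 in limma, where the smallest adjusted p was 0.332. At an unadjusted p under 0.05 limma gave 796 genes (6.79%), 285 higher (2.43%) and 511 lower (4.36%). With edgeR's quasi-likelihood test on the recovered reads the count was 0 as well, and 678 genes had an unadjusted p under 0.05. The groups did not overlap for 140 genes that were higher (1.19%) and for 201 that were lower (1.71%). By mean difference 45.2% of the genes were higher and 54.8% lower. In 4 of 4 pairs 6.19% were higher and 10.5% lower, and the list counts below are to be read beside these shares. Every gene or list described below as higher or lower is therefore described by its values and did not pass the test over all genes.

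Some libraries stand apart in transcripts that mark a line, and these values bear on all that follows. In line 42-3 the control held the Y-linked transcripts Ddx3y at 98.3 CPM, Eif2s3y at 101 CPM, Kdm5d at 28.4 CPM and Uty at 40.2 CPM, and the library labelled 42-3 shRNA 2 held Ddx3y at 0.119 CPM and the others at 0. Cdkn2a and Cdkn2b, which encode cell cycle inhibitors that are often deleted in pancreatic cancer, were at 64.5 and 101 CPM in that control and at 0 in that shRNA 2 library. Over 12931 genes the library labelled 42-3 shRNA 2 correlated with its own control at r = 0.849. With the shRNA 1 library of 13-2, a liver line, it correlated at r = 0.963. Its own control was number 13 of the other 17 libraries in likeness. The r of this shRNA 2 library was 0.879 with the NT control of 13-2 and 0.896 with the shRNA 1 library of 42-3. The identity of the library labelled 42-3 shRNA 2 was not tested further. The median of each gene list described below is given with and without the 42-3 pair.

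The other pairs were closer, with r between partners of 0.915 in G45-2, 0.902 in 6-3 and 0.965 in 42-2. The control and the shRNA 2 library of 6-3 carry different library codes in the labels, whereas those of the other 3 pairs share a code. What the codes stand for is not stated, and code and hairpin cannot be told apart in 6-3, so medians without 6-3 are given where they differ by over 1.5 times. In 42-2 the Y-linked transcripts lay at 1.00 to 4.08 CPM in the control and at 0.0687 CPM each (1 read) under shRNA 2, with Xist at 41.7 and 74.3 CPM. In G45-2 only Kdm5d among the 7 identity transcripts moved from above 20 CPM to near 0, from 29.8 to 0.0621 CPM. Line 42-2 held little of the ductal epithelial markers. The summed CPM of 10 ductal carcinoma markers was 540 in its control against 7869 in G45-2, 13040 in 42-3 and 13740 in 6-3. In the 42-2 control 8 fibroblast markers summed to 2920, of which Col3a1 was 2681. Ptprc, the pan-leukocyte marker, was at most 0.337 CPM in any of the 8 libraries, and 6 endothelial markers summed to 0.435 to 1.64 CPM. Fewer cells of a kind and less RNA per cell cannot be told apart in these bulk libraries.

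**Figure D1:**
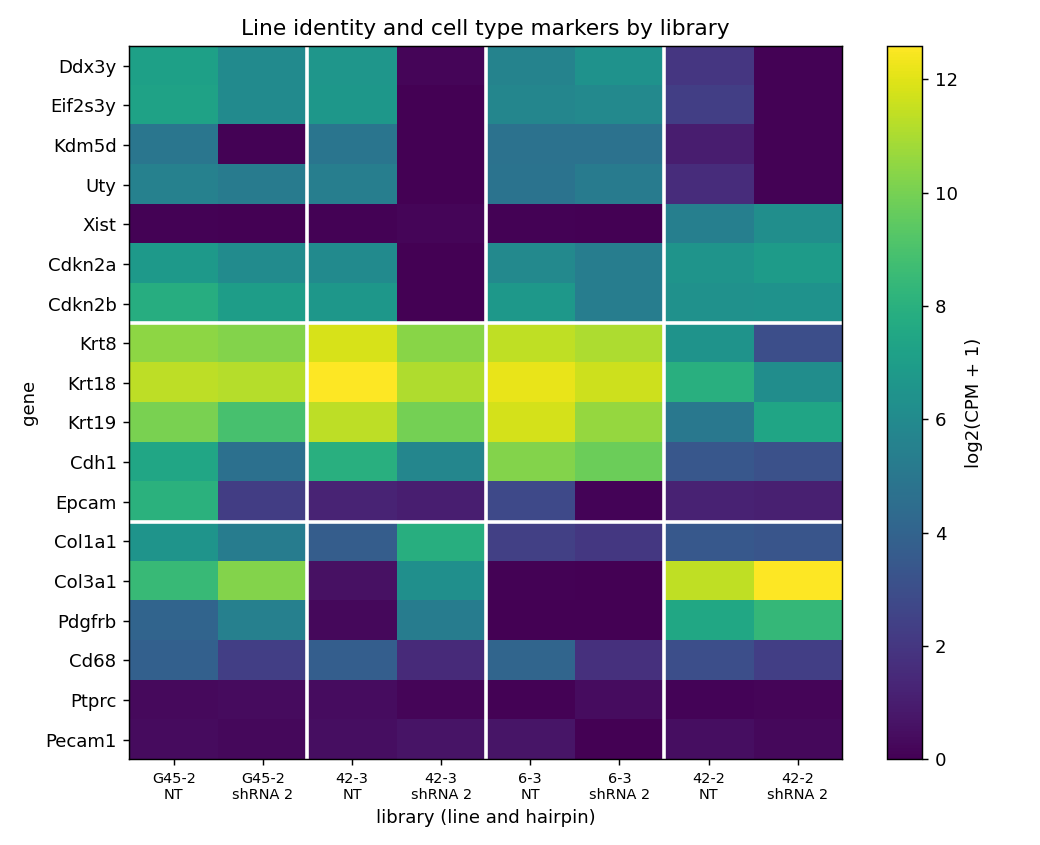
Log2(CPM + 1) of 7 line identity transcripts (top block), 5 ductal epithelial markers (middle block) and 6 markers of fibroblasts, leukocytes and endothelium (bottom block) in the 8 libraries, with control and shRNA 2 of a line side by side. In line 42-3 the identity transcripts other than Xist go from 28.4 to 101 CPM in the control to 0 to 0.119 CPM, and line 42-2 has low keratins and high Col3a1 in both libraries.

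Gstt1 (ENSMUSG00000001663) was lower under shRNA 2 in 4 of 4 pairs. It was at 43.8 CPM in the G45-2 control and 5.15 CPM under shRNA 2, which left 11.8% of control (95% exact interval for the ratio of reads 9.26% to 14.8%, counting error only). In 42-3 it was at 38.8 and 0.238 CPM, leaving 0.613% (0.0740% to 2.22%), with 2 reads in the library labelled shRNA 2. In 6-3 it was at 25.4 and 0.250 CPM, leaving 0.982% (0.202% to 2.89%), with 3 reads. In 42-2 the control itself held only 8 reads (0.616 CPM) and shRNA 2 held 1 read (0.0687 CPM), a ratio of 11.2% whose interval runs from 0.252% to 83.2%. At these read numbers a difference in 42-2 was hardly measurable. The highest shRNA 2 value, 5.15 CPM in G45-2, lay above the 42-2 control, so that the groups overlap, while the other 3 controls lay above every shRNA 2 library.

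The pair differences of Gstt1 were -2.87, -5.01, -4.40 and -0.60 in the order G45-2, 42-3, 6-3 and 42-2, with a mean of -3.22 ± 1.97 (SD, n = 4 pairs). Flipping the signs of the 4 pairs in an exact permutation test, two-sided, gave a p of 0.13, the lowest value such a design can reach. In limma the difference was -3.22 with an SE of 0.75 and an adjusted p of 0.705 over all genes. Without 42-3 it was -2.62.

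Gstt3, a paralogue of the same theta class, was also lower in 4 of 4 pairs. It was at 43.9, 25.6, 7.43 and 2.31 CPM in the controls of G45-2, 42-3, 6-3 and 42-2, and at 4.78, 0.832, 0.166 and 0.412 CPM under shRNA 2. Its mean difference was -2.72 (SE 0.48, limma adjusted p = 0.705), or -2.35 without 42-3. Gstt2 was scarce outside G45-2, where it was at 15.0 and 1.06 CPM, and it was under 1 CPM in every other library. Reads that match more than 1 theta gene could be assigned to either in the authors' counting, and whether the hairpin matches Gstt3 was not tested, as no hairpin sequence was used here.

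**Figure D2:**
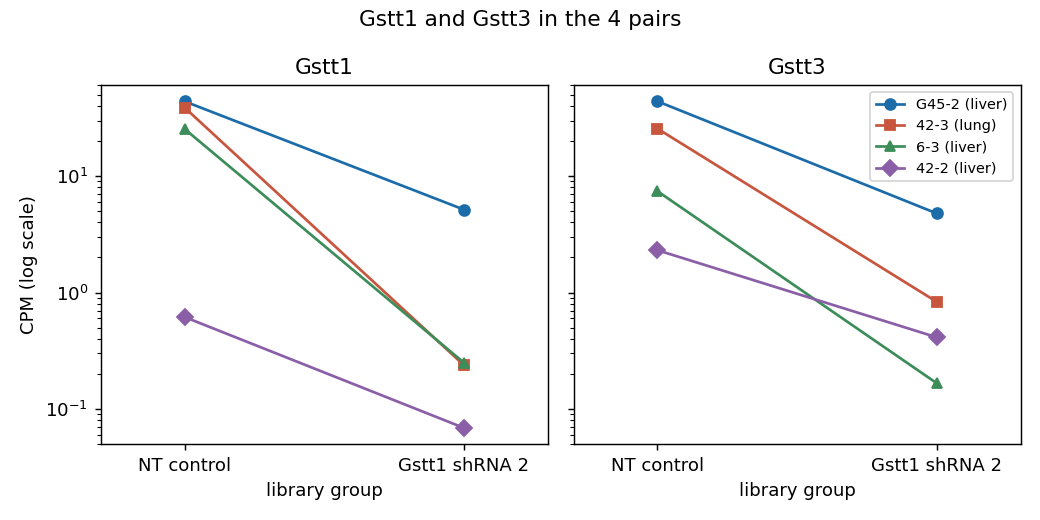
CPM on a log axis of Gstt1 (left) and Gstt3 (right) in the NT control and the shRNA 2 library of each line, joined by line. All 4 lines slope down for both genes, and the 42-2 control starts at 0.616 CPM of Gstt1, below the 5.15 CPM that remained in G45-2 under shRNA 2.

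Transferases taken as a list, with Gstt3 among them and Gstt1 left out, did not share 1 direction across lines. All 18 tested members of the transferase list had a mean below 0 (54.8% of all genes did), with a median difference of -0.42 against -0.04 over all genes, yet the medians within pairs were 0.02 in G45-2, 0.15 in 42-3, -1.99 in 6-3 and -0.56 in 42-2. Without the 6-3 pair the median was -0.04, with 8 members higher and 10 lower, and without 42-3 it was -1.11. After quantile normalization 17 of the 18 were lower. Mgst1, a microsomal transferase, shows the pattern, with 125, 67.7, 230 and 82.6 CPM in the controls and 132, 70.3, 12.8 and 1.65 CPM under shRNA 2. It was near its control in G45-2 and 42-3, and far below it in 6-3 and 42-2. NRF2 is the factor that activates glutathione and detoxification genes under oxidative stress. Of its 27 listed targets 10 were higher and 17 lower (54.8% of all genes were lower). Their median was -0.18 (-0.23 without 42-3, -0.06 without 42-2, -0.30 without G45-2). Prdx1, a peroxide-removing enzyme, was at 1085, 1695, 1245 and 878 CPM in the controls and 884, 1128, 989 and 727 CPM under shRNA 2, a difference of -0.37 (SE 0.20, limma adjusted p = 0.735).

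Genes of chemokines, cytokines and myeloid growth factors had the lowest median of the 30 lists, a rank they kept in 10 of 16 alternatives. Acute-phase genes were lower without G45-2 or 42-2, with 42-3 and 42-2 left out, with 18 libraries in 1 model and with a pseudocount of 2, and keratins without 6-3. Of 31 listed, 24 passed the level filter, and 22 of these were lower under shRNA 2, 11 of them in 4 of 4 pairs (10.5% of all genes were). The median difference was -1.50, and the 4 pair medians lay close together, at -1.52, -1.48, -1.70 and -1.37. For 5 members the groups did not overlap (1.71% of all genes, lower). The median was -1.74 without the 42-3 pair and -1.47 with both 42-3 and 42-2 left out. These proteins recruit and instruct myeloid cells, and pancreatic tumour cells are known to secrete several of them.

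Csf3 (ENSMUSG00000038067), the growth factor for neutrophils, had the largest difference of the group among members with 1 direction. It was at 70.9, 193, 380 and 39.4 CPM in the controls and 5.03, 2.14, 9.74 and 1.79 CPM under shRNA 2. Every shRNA 2 library lay below every control, the difference being -4.63 (SE 0.45, limma adjusted p = 0.332). Csf2, which supports granulocytes and macrophages, was at 44.6, 101, 55.8 and 8.62 CPM and then 2.36, 14.9, 2.83 and 1.72 CPM. It was lower in every pair, but the 42-3 library under shRNA 2 lay above the 42-2 control.

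Ccl20, the ligand of CCR6 on lymphocytes and dendritic cells, was at 15.4, 44.1, 121 and 64.2 CPM in the controls and 3.41, 4.64, 9.15 and 11.1 CPM under shRNA 2 (difference -2.73, SE 0.35, limma adjusted p = 0.484), with no overlap. Ccl2, which attracts monocytes, was at 86.7, 563, 32.6 and 327 CPM and then 25.9, 110, 2.41 and 134 CPM. Each pair was lower although the ranges cross, since lines differ in their level. Cxcl5, a neutrophil chemokine, was the most abundant member in the controls, at 1220, 1594, 4067 and 2140 CPM, and was at 325, 382, 14.0 and 230 CPM under shRNA 2, with the lowest value in 6-3.

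Not all members followed. Cxcl12, a chemokine of stromal cells, was at 17.2, 0.0674, 1.16 and 15.0 CPM in the controls and 2.48, 2696, 0.333 and 1.31 CPM under shRNA 2. It was thus lower in the 3 liver lines and higher by 11.30 log2 units in the pair labelled 42-3. Cxcl1 and Cxcl2 were lower in the 3 liver lines and at 456 and 469 CPM (Cxcl1) and 2.29 and 10.2 CPM (Cxcl2) in 42-3.

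Several of these genes are known targets of NF-kB. The promoters of the list were therefore searched for GGGA and TTCC separated by any 2 bases, a form of the NF-kB site. The search covered both strands of the 250 bases before the start site (RefSeq, build GRCm38.p6). A promoter was at hand for 17 of the 24 tested members, and 6 held a match (35.3%), against 1.53% of the 8323 tested genes with a promoter. In a list that holds known NF-kB targets, a share above that of all genes says nothing about shRNA 2. A part of NF-kB in the lower levels was not tested. The 6 are shown as 70 bases of the gene's own strand, 5′ to 3′, with the matching bases in capitals, to let the sites be compared with the levels of their genes. In Cxcl1, Cxcl2 and Cxcl3 the capitals cover overlapping matches on the 2 strands. A match describes letters in a window and is no measurement of binding.
Cxcl1: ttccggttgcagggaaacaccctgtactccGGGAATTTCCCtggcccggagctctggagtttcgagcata
Cxcl2: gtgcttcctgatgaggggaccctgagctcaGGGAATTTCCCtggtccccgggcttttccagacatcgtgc
Cxcl3: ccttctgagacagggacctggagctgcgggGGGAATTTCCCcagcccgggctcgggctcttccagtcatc
Cxcl10: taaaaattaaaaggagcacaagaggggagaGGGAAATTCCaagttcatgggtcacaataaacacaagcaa
Csf1: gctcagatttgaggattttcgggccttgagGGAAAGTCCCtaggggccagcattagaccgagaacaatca
Il6: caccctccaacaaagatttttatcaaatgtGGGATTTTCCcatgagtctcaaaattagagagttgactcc

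The 3 CXC chemokines with the 11-base palindrome-like stretch lie together on chromosome 5 (Cxcl3 window chr5:90785998-90786067, Cxcl1 chr5:90891144-90891213, Cxcl2 chr5:90903772-90903841, all on the plus strand). Their mean differences were -3.74 for Cxcl3, -2.48 for Cxcl1 and -2.39 for Cxcl2. Cxcl3 was the only one of the 6 that was lower in 4 of 4 pairs, at 20.5, 123, 53.9 and 4.70 CPM in the controls and 6.95, 0.119, 1.58 and 0.137 CPM under shRNA 2. Cxcl10 (window chr5:92349009-92349078, minus strand) and Csf1 (chr3:107760584-107760653, minus strand) were lower in 2 of 4 pairs, and Il6 (chr5:30013040-30013109, plus strand) in 3. A match was thus found in members with and without a shared direction.

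Of 25 genes for NF-kB subunits and feedback inhibitors, 21 were lower (54.8% of all genes were). Of these 11 were lower in 4 of 4 pairs (10.5% of all genes were). The median over the 25 was -0.58 (pair medians -0.45, -0.18, -0.99 and -0.22), or -0.46 without 42-3. Tnip1, an inhibitor of NF-kB signalling, was at 175, 277, 189 and 133 CPM in the controls and 116, 86.4, 96.2 and 77.3 CPM under shRNA 2, with no overlap (difference -0.999, SE 0.23, limma adjusted p = 0.705). Birc3, an NF-kB induced ubiquitin ligase, was lower in each pair, with a mean difference of -1.24 (SE 0.39).

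Of 25 listed acute-phase and innate defence genes 12 were tested and 11 were lower, with a median of -1.34, but the pair medians ran from 0.25 in G45-2 and -0.30 in 42-3 to -2.66 in 6-3 and -1.79 in 42-2. The median was -0.56 without 6-3 and -1.58 without 42-3. Lcn2, an iron-binding defence protein, was at 188, 86.1, 413 and 761 CPM in the controls and 20.4, 25.8, 0.0832 and 1.92 CPM under shRNA 2. All 4 shRNA 2 libraries lay below all 4 controls, with a difference of -5.36 (SE 1.25, limma adjusted p = 0.705). Cd14, a co-receptor for bacterial lipopolysaccharide, also stood in the leukocyte marker list. It was at 118, 368, 858 and 101 CPM in the controls and 130, 108, 102 and 16.2 CPM under shRNA 2. Cd68, a lysosomal protein and the other leukocyte marker that was tested, was at 13.3, 12.6, 16.3 and 7.16 CPM and then 3.97, 1.78, 2.33 and 4.12 CPM, lower in 4 of 4 pairs without overlap. Ptprc was at or below 0.337 CPM in all 8 libraries. The part of leukocyte transcripts in these values was not tested.

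Of 26 interferon-stimulated genes 25 were lower (54.8% of all genes were), with a median of -0.62. In 4 of 4 pairs 9 were lower (10.5% of all genes were). The pair labelled 42-3 had a median of -1.58 with 0 of 26 members higher, and the other pairs lay at -0.27, -0.55 and -0.22. Without 42-3 the median was -0.26, with 20 lower and 6 higher. Bst2, which tethers viruses at the cell surface, was at 26.0, 98.3, 55.0 and 66.4 CPM and then 20.2, 19.6, 28.0 and 28.7 CPM, so that the largest gap was again in 42-3. Of 18 genes of MHC class I presentation 14 were lower (median -0.36, or -0.37 without 42-3, -0.20 without 6-3 and -0.55 without G45-2), and the G45-2 pair had a positive median of 0.46. H2-K1, a class I heavy chain, was at 82.8 and 142 CPM in G45-2, and at 324 and 96.2 CPM in 42-3, 209 and 56.8 CPM in 6-3 and 112 and 29.1 CPM in 42-2.

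Of 9 tested immune checkpoint ligands 8 were lower (54.8% of all genes were), 5 in 4 of 4 pairs (10.5% of all genes). The median was -0.73 with and without 42-3. It was -0.42 over 13 ligands without the level filter, with 5 higher and 8 lower. With the filter at 5 CPM it was -0.45 over 6 ligands. Cd274 (PD-L1) was at 5.41, 5.12, 3.68 and 8.01 CPM in the controls and 3.72, 2.14, 1.08 and 2.82 CPM under shRNA 2, a difference of -0.95 (SE 0.31, limma adjusted p = 0.705) with a slight overlap. Vtcn1 (B7-H4) was at 12.8, 2.36, 2.66 and 1.62 CPM in the controls and had 0 reads in all 4 shRNA 2 libraries. It thus passed the level filter through the controls alone and could only be counted as lower. Against a floor of 3 reads per library it was at least 68.7-fold lower in G45-2, 6.61-fold in 42-3, 10.6-fold in 6-3 and 7.84-fold in 42-2.

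Genes of the mitotic spindle and its checkpoint had the highest median of the 30 lists in the main fit and in 15 of 16 alternatives. Without 6-3 they were number 4, behind mesenchymal genes at 0.67. Of 38, 37 were higher on average (45.2% of all genes were), 17 of them in 4 of 4 pairs (6.19% of all genes were) and 13 without overlap between groups (1.19% of all genes). The median difference was 0.92, and it differed by line, at 1.28 in G45-2, -0.16 in 42-3, 2.08 in 6-3 and 0.32 in 42-2. All 38 were higher in G45-2 and in 6-3, 33 in 42-2 and 17 in 42-3. Without the 42-3 pair the median was 1.31, and with 42-3 and 42-2 left out it was 1.70. Without 6-3 it was 0.54.

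Mki67, the proliferation antigen Ki-67, was at 101, 119, 53.3 and 101 CPM in the controls and 301, 232, 253 and 139 CPM under shRNA 2 (difference 1.31, SE 0.32, limma adjusted p = 0.705). The lowest shRNA 2 value, in 42-2, was still above the highest control. Ckap5, which lengthens spindle microtubules, was at 142, 148, 119 and 165 CPM and then 269, 234, 278 and 267 CPM, a difference of 0.87 (SE 0.18). Anln, a scaffold of the cleavage furrow, was at 109, 260, 67.7 and 260 CPM and then 497, 497, 616 and 389 CPM. The 6-3 control was the lowest library for both Mki67 and Anln.

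DNA replication genes also had a positive median, smaller than that of the mitotic genes. Of 46, 41 were higher (45.2% of all genes were), 7 of them in 4 of 4 pairs (6.19% of all genes were). The median was 0.55, with pair medians of 0.48, -0.25, 1.64 and 0.05. Mcm4, a subunit of the replicative helicase, was at 194, 164, 68.8 and 199 CPM in the controls and 332, 208, 326 and 334 CPM under shRNA 2, with no overlap (difference 1.02, SE 0.33, limma adjusted p = 0.705). The median was 0.73 without 42-3, and without 6-3 it was 0.13, with 29 higher and 17 lower. The 6-3 control was again the lowest library for Mcm4.

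Of 10 cell cycle inhibitors 8 were tested, and their median of 0.56 became 0.03 without the pair labelled 42-3. Cdkn1a, the inhibitor p21, was at 20.0 and 415 CPM in that pair and at 72.1 and 41.7 CPM in G45-2, 135 and 67.4 CPM in 6-3 and 28.5 and 38.6 CPM in 42-2.

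**Figure D3:**
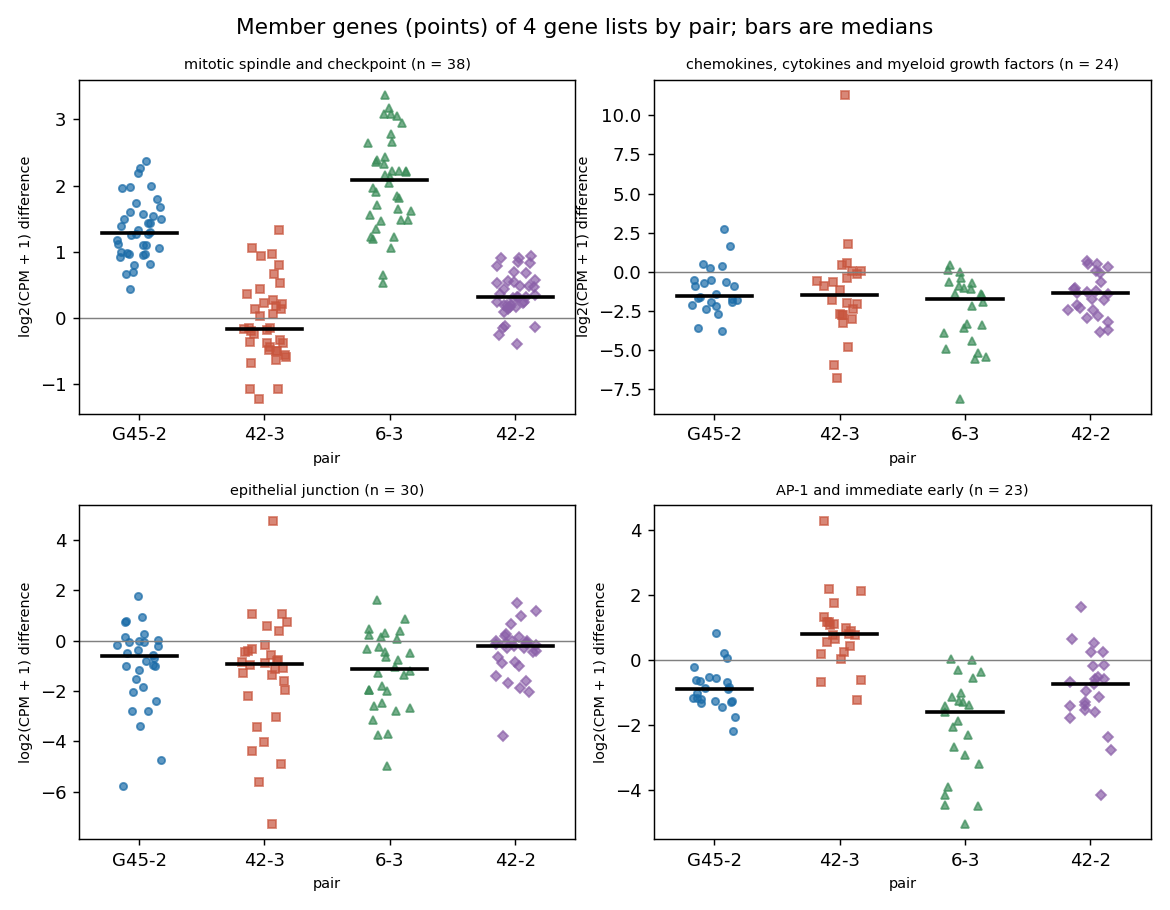
Difference in log2(CPM + 1) of each tested member (points) and the median (bar) in each pair, for mitotic genes, chemokines and cytokines, epithelial junction genes and AP-1 and immediate early genes. The chemokine medians are alike in the 4 pairs (-1.37 to -1.70), whereas the mitotic medians run from -0.16 in 42-3 to 2.08 in 6-3 and the AP-1 median is above 0 in 42-3 alone (0.81).

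Immediate early genes of the AP-1 family separated the pair labelled 42-3 from the rest. Of 23, 20 were lower with a median of -0.62, and the pair medians were -0.88, 0.81, -1.58 and -0.71. The median was -0.91 without 42-3 and -0.28 without 6-3. Fos was at 45.3, 295, 1022 and 346 CPM in the controls and 9.25, 194, 29.96 and 18.8 CPM under shRNA 2. Junb was at 1015, 1258, 3807 and 1004 CPM and then 430, 1306, 776 and 457 CPM, lower in the 3 liver lines and near its control in 42-3.

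Genes of epithelial junctions were lower in most pairs. Of 42 listed, 30 were tested and 26 were lower (54.8% of all genes were), 10 in 4 of 4 pairs (10.5% of all genes). The median was -1.30, with pair medians of -0.62, -0.93, -1.11 and -0.21. The median was -0.77 without 42-3 and -0.84 with 42-3 and 42-2 left out. Elf3, an epithelial transcription factor, was at 82.7, 54.6, 188 and 40.7 CPM in the controls and 19.4, 17.5, 47.1 and 12.7 CPM under shRNA 2. Its 4 pair differences lay between -2.04 and -1.59, and their mean was -1.80 (SE 0.21, limma adjusted p = 0.418). The ranges cross because the 6-3 library under shRNA 2 is above the 42-2 control.

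Cdh1 (E-cadherin) was at 175, 249, 1233 and 9.70 CPM in the controls and 24.4, 53.7, 869 and 7.63 CPM under shRNA 2, so that the gap was wide in G45-2 and 42-3 and narrow in 6-3 and 42-2. Krt18, a keratin of simple epithelia, was at 2576, 6167, 4558 and 249 CPM and then 2352, 2160, 3152 and 70.8 CPM. Krt7 was at 1985, 21.7, 1422 and 20.2 CPM and then 2.98, 6.18, 21.1 and 6.53 CPM, with the widest gaps in G45-2 and 6-3. Of 17 tested genes of the classical pancreatic cancer programme 12 were lower (median -0.77, or -0.62 without 42-3 and -1.24 without 42-2), among them Pdx1, a pancreatic lineage factor, at 65.2, 13.7, 167 and 20.2 CPM and then 10.7, 5.83, 49.5 and 20.8 CPM.

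Mesenchymal genes had a positive median that was smaller without 42-3. Of 23 tested, 18 were higher with a median of 0.70, which was 0.29 without that pair, and the 6-3 pair had a median of -0.07. Vim (vimentin) was at 1264, 1899, 1722 and 1462 CPM in the controls and 2009, 2831, 1764 and 4552 CPM under shRNA 2, a difference of 0.73 (SE 0.32, limma adjusted p = 0.724). Zeb2, a repressor of Cdh1, was at 46.1, 32.6, 12.1 and 52.4 CPM and then 73.1, 43.4, 35.6 and 92.6 CPM. Of 4 tested fibroblast markers, 2 were higher in G45-2, 4 in 42-3, 0 in 6-3 and 2 in 42-2. The sum over 8 fibroblast markers was 516 and 1331 CPM in G45-2 and 14.1 and 357 CPM in 42-3. It was 6.13 and 4.16 CPM in 6-3 and 2920 and 6453 CPM in 42-2. Col3a1 made up most of the sums in G45-2 (357 and 1236 CPM) and in 42-2 (2681 and 6083 CPM). Pdgfrb was also higher in these lines, while Pdgfra and Col1a1 were lower in both. The part of fibroblast transcripts in the mesenchymal values was not tested.

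The collagen and laminin list had a median of 0.19, which was -0.07 without 42-3 and 0.60 without 6-3. Col4a1, a basement membrane collagen, was nonetheless higher in 4 of 4 pairs without overlap, at 414, 416, 432 and 643 CPM and then 682, 669, 659 and 860 CPM (difference 0.61, SE 0.18, limma adjusted p = 0.705). Of 24 tested matrix proteases and inhibitors 13 were lower, near the share over all genes (54.8%). The median was -0.13, with -0.37 without 42-3 and -0.04 to -0.39 over the 4 ways to leave out 1 pair. Mmp13, a collagenase, was at 148, 42.6, 80.1 and 56.0 CPM in the controls and 22.4, 11.2, 20.3 and 2.54 CPM under shRNA 2, with no overlap (difference -2.61, SE 0.41, limma adjusted p = 0.705).

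Metabolic lists had small medians or medians that differed by line. Of 61 oxidative phosphorylation genes 55 were lower (54.8% of all genes were), 21 of them in 4 of 4 pairs (10.5% of all genes). The median was only -0.26 (pair medians -0.35, -0.54, -0.17 and -0.10), and it was -0.16 without 42-3. Cox6a1, a subunit of cytochrome c oxidase, was at 260, 232, 270 and 265 CPM in the controls and 150, 145, 166 and 232 CPM under shRNA 2. The highest shRNA 2 value met the lowest control almost exactly. Of 30 glycolysis and hypoxia genes 27 were lower (median -0.39, or -0.50 without 42-3 and -0.21 without 6-3), with -1.08 in 6-3 and -0.09 to -0.38 in the other pairs. Cholesterol synthesis genes were higher in G45-2 (0.67) and 42-2 (0.58) and lower in 42-3 (-1.58) and 6-3 (-0.50). Their median of -0.22 became 0.27 without 42-3 and -0.07 without 6-3. Ribosomal protein genes had a median of -0.67 in G45-2 and -0.04 to 0.06 elsewhere. Their median over the 4 pairs was -0.13, or -0.19 without 42-3 and -0.24 without 6-3.

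**Figure D4:**
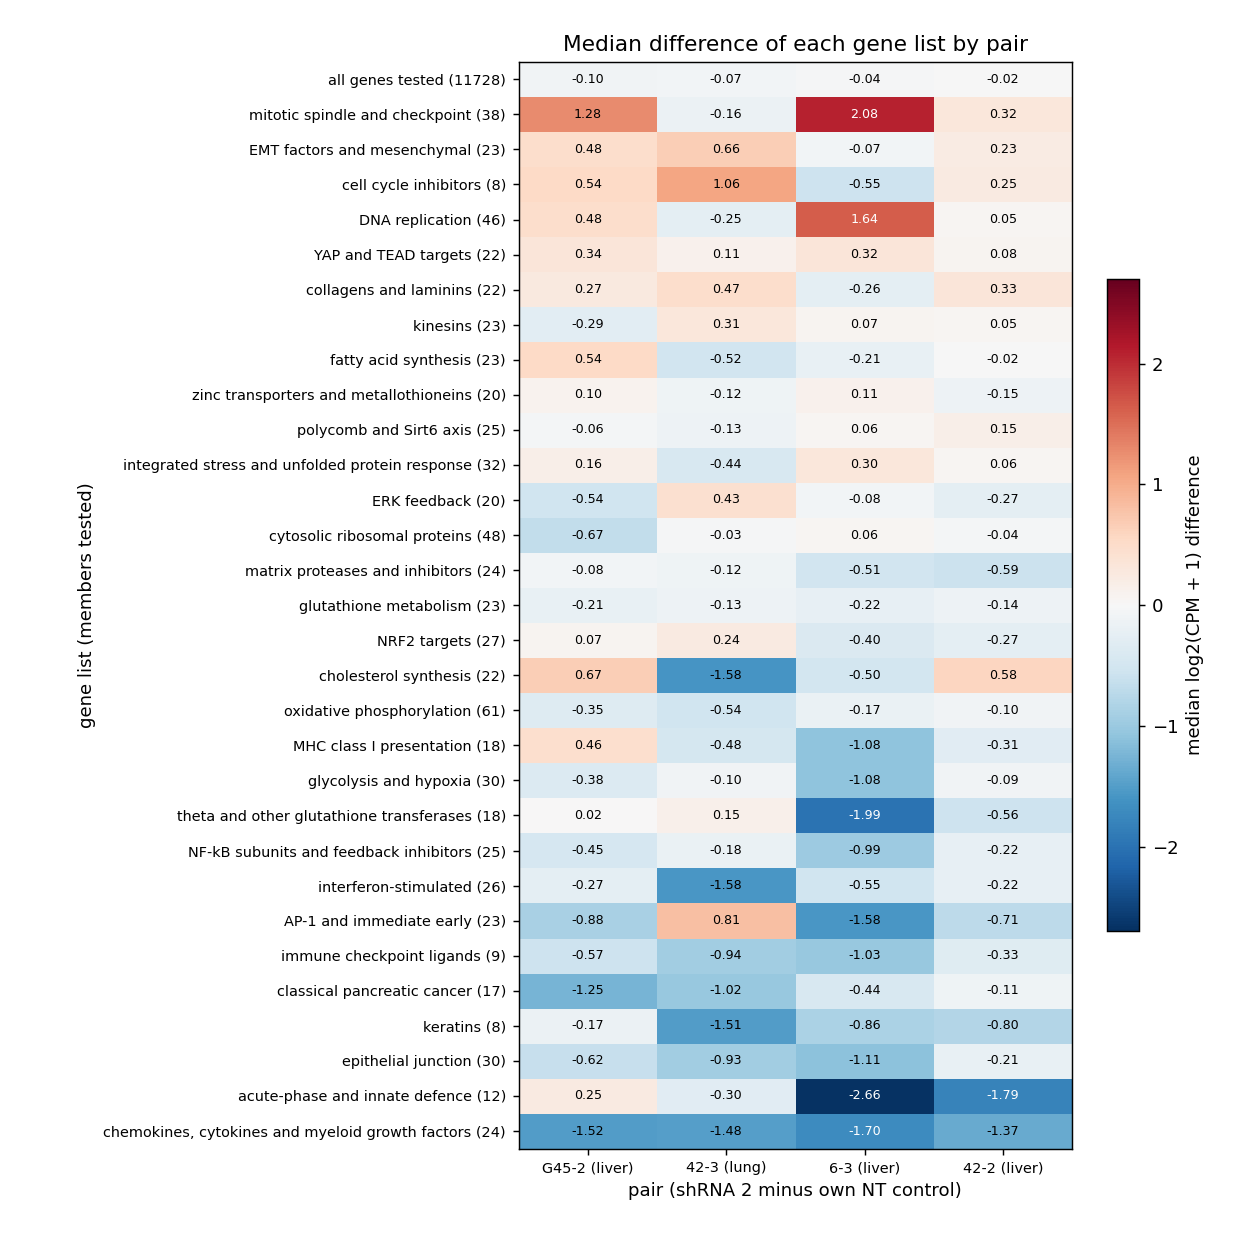
Median difference in log2(CPM + 1), shRNA 2 minus own NT control, of the 30 gene lists and of all genes tested (top row) in each of the 4 pairs, with the number of tested members in brackets, ordered by the median of the mean differences. Chemokines and epithelial junction genes are below 0 in every column, as are several other lists and all genes tested (-0.10 to -0.02). The 42-3 column differs in sign from the 3 liver columns for mitotic, DNA replication, AP-1, ERK feedback and integrated stress genes.

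Across single genes, the 12 higher and 11 lower genes named here, which are among those of smallest p of the genes with a mean of at least 5 CPM and 1 direction in 4 of 4 pairs, had limma adjusted p-values of 0.332 to 0.705. Without the 42-3 pair their differences were 0.825 to 1.11 times those over 4 pairs, for example 3.73 for Arhgap31 and -4.19 for Csf3. All 23 kept their sign, which the rule of 1 direction in 4 of 4 pairs had fixed in advance. Choice by smallest p also favours genes whose pairs are alike, so these ratios are no check on the 42-3 library. Arhgap31 (ENSMUSG00000022799), which switches off the small GTPases Cdc42 and Rac1, had the largest difference among the higher ones. It was at 0.230, 0.539, 0.204 and 4.70 CPM in the controls and 13.6, 31.3, 27.3 and 47.1 CPM under shRNA 2. Every shRNA 2 library lay above every control, the difference being 3.90 (SE 0.37, limma adjusted p = 0.332).

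Hipk3, a nuclear kinase, was at 56.7, 61.9, 64.9 and 56.2 CPM in the controls and 174, 126, 144 and 95.3 CPM under shRNA 2 (difference 1.13, SE 0.21). Itch, a ubiquitin ligase that acts on Jun family proteins and others, was at 66.3, 54.0, 52.5 and 67.8 CPM and then 128, 102, 128 and 158 CPM (difference 1.08, SE 0.18). The controls of both genes were alike across the 4 lines and did not overlap with shRNA 2. Pik3r1, the regulatory subunit of PI3 kinase, had a difference of 1.33 (SE 0.24), Tnks, which modifies proteins with poly(ADP-ribose), 1.28 (SE 0.23), and Trpm7, a magnesium channel, 1.09 (SE 0.21). Dpysl3 was at 86.9, 134, 5.52 and 294 CPM in the controls and 384, 418, 130 and 861 CPM under shRNA 2. Jam2, a junction protein of endothelium, was at 12.3, 19.6, 0.341 and 0.154 CPM and then 65.6, 119, 1.83 and 1.79 CPM. Zfp367, Angptl2, Ckap5 and Nradd complete the 12, with differences from 0.87 (Ckap5) to 2.63 (Nradd).

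Among the lower genes Kif21b, a kinesin motor, was at 96.8, 46.1, 62.8 and 23.4 CPM and then 24.5, 5.94, 11.1 and 4.54 CPM. Its 4 pair differences were alike, with a mean of -2.31 (SE 0.26, limma adjusted p = 0.418), and only the G45-2 library under shRNA 2 crossed the lowest control. Smpdl3b, a lipid-modifying membrane enzyme, was at 13.1, 10.2, 9.06 and 32.8 CPM and then 1.68, 0.476, 0.166 and 6.74 CPM (difference -2.64, SE 0.32). Slfn2, an interferon-inducible gene of the Schlafen family, was at 12.4, 155, 49.3 and 28.1 CPM and then 3.66, 6.18, 6.24 and 0.825 CPM. Gbp1, an interferon-inducible GTPase, had a difference of -1.71 (SE 0.28) and Bicc1, an RNA-binding protein, -3.46 (SE 0.61). Csf3, Ccl20, Csf2, Ccl2, Elf3 and Mmp13 complete the lower genes.

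**Figure D5:**
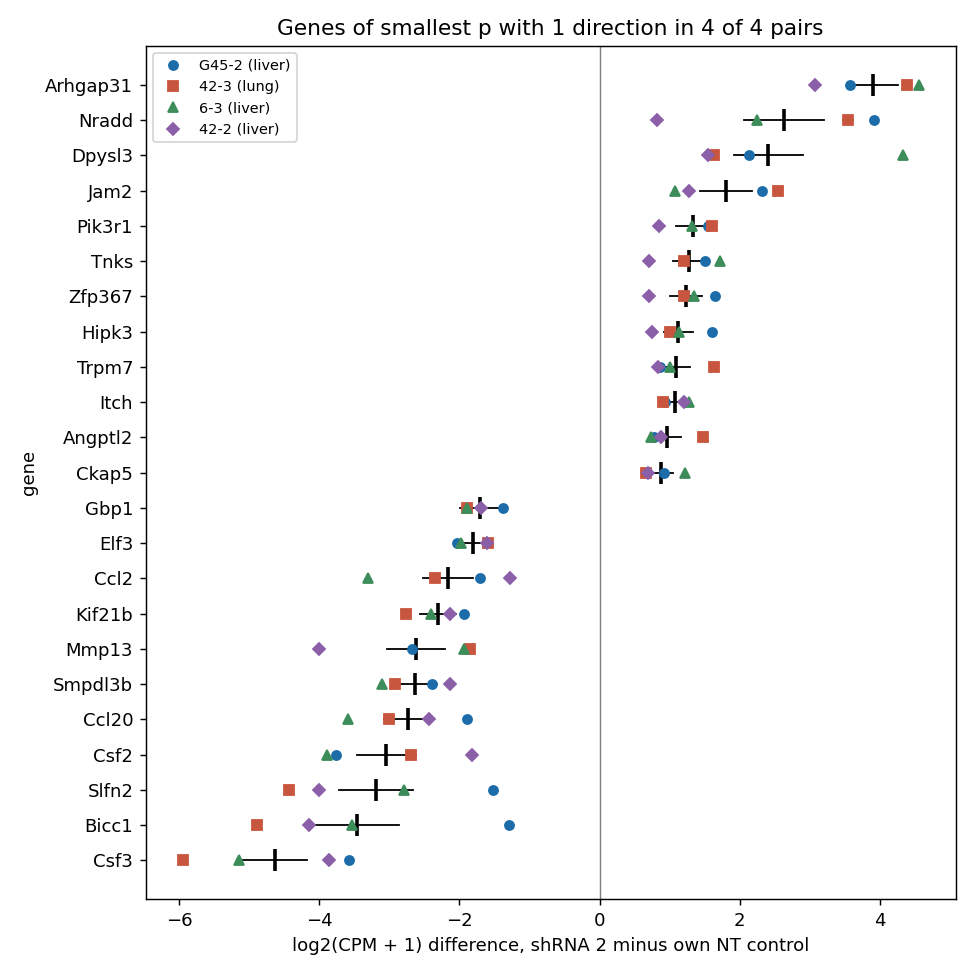
Differences in log2(CPM + 1), shRNA 2 minus own NT control, of the 12 higher and 11 lower genes, with 1 symbol per line and the mean with 1 SE (black bar). Arhgap31 is the farthest to the right (3.90) and Csf3 (-4.63) the farthest to the left, and no gene passed the adjusted threshold.

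The 4 pairs differed from each other more than these genes would show. The SD of the differences over all tested genes was 0.915 in G45-2, 1.29 in 42-3, 1.12 in 6-3 and 0.638 in 42-2. In 42-2, whose control had little Gstt1, 329 genes (2.81%) were higher by over 1 log2 unit and 641 (5.47%) lower. The counts were 895 (7.63%) and 1115 (9.51%) in G45-2, 1437 (12.3%) and 1467 (12.5%) in the pair labelled 42-3, and 1297 (11.1%) and 1818 (15.5%) in 6-3. As a description across genes, which are not independent replicates, the differences correlated at r = 0.28 between 6-3 and 42-2, 0.18 between G45-2 and 6-3, and -0.02 to 0.07 for the 4 other combinations.

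The effect of shRNA 2 was compared with that of the other hairpin, shRNA 1, in 1 limma fit over the 18 libraries. Of 12931 genes 0 (0%) passed an adjusted p of 0.05 for the difference between hairpins, where the smallest was 0.9999. An unadjusted p under 0.05 was found for 64 (0.495%), a smaller share than that threshold allows by chance. The fit was thus strict, and the 0 does not show that the hairpins acted alike. Lines G45-2 and 6-3 received both hairpins beside 1 shared control each. The shRNA 2 library correlated with the shRNA 1 library of its line at r = 0.981 in G45-2 and 0.935 in 6-3. With its control r was 0.915 and 0.902. In G45-2 Gstt1 was at 43.8 CPM in the control, 23.9 CPM with shRNA 1 and 5.15 CPM with shRNA 2. In 6-3 Gstt1 was at 25.4, 19.2 and 0.250 CPM, so that shRNA 2 left less of it in both lines. Over all sets the difference between the hairpins' effects on Gstt1 was -1.19 (SE 1.05, limma adjusted p = 0.9999). Csf3 was at 70.9 CPM in the G45-2 control, 1.97 CPM with shRNA 1 and 5.03 CPM with shRNA 2. In 6-3 Csf3 was at 380, 12 and 9.74 CPM in the same order. Arhgap31 was at 0.230, 3.99 and 13.6 CPM in G45-2 and at 0.204, 88.7 and 27.3 CPM in 6-3. How the other changes relate to the remaining Gstt1 was not tested. Osgin1, an oxidative stress response gene, had the smallest p for a difference between the hairpins among genes of at least 5 CPM (1.08, SE 0.32, limma adjusted p = 0.9999), with 45.9 and 39.6 CPM in G45-2 and 97.7 and 384 CPM in 6-3.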

How the data were processed

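The authors deposited 1 table of CPM values with 16383 genes, and 32 gene symbols occur more than once in it. Per the submitters' processing notes the genome build was mm9, while aligner, counter, annotation and strand setting are not given in the sources at hand. Listed genes hold 99.3% to 99.6% of each library's total. All values (100%) were whole multiples of 1 read within 0.01 reads, which gave the library totals.

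Genes that reached 1 CPM in 4 or more of the 8 libraries were fitted on log2(CPM + 1) with limma 3.58.1 (trend, R 4.3.3), line as block, two-sided, Benjamini-Hochberg threshold 0.05. This scale understates the change of low genes. The pairing comes from the line in the labels. The deviations of paired libraries from their group means correlated at r = 0.15 in G45-2, -0.11 in 42-3, 0.41 in 6-3 and 0.70 in 42-2. Lines 42-3 and 42-2 have 2 NT controls each, and the control with the same set was used. edgeR 4.0.16 on the recovered reads, and edgeR with 42-3 and 42-2 left out, were added after the data were seen. Python 3.11.15 with scipy 1.17.1 made the exact tests. Promoters are RefSeq, GRCm38.p6, used for sequence only.

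Named were Gstt1, up to 12 genes per direction (mean CPM of at least 5, 1 direction in 4 of 4 pairs, smallest p) and members of 30 lists by smallest p. Some items that these rules cover are not reported here. Cxcl1, Cxcl2, Cxcl3, Cxcl5, Cxcl10, Cxcl12, Csf1, Il6, Cdh1, Anln, Cdkn1a and Gstt2 were named after their values were seen. The pairs, lists and rules were chosen with earlier results of these data known.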

Additional observations from a re-analysis of the deposited data

Results flagged for a closer look

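In 1 of 54 sets of 4 values a single pair lay far from the other 3, where chance gives about 1 in 20. This was the median of the ribosomal protein list in G45-2, at -0.67.

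In 5 lists the median of the lung pair 42-3 had the opposite sign to those of all 3 liver pairs, and this difference was not tested, as there is 1 lung pair. The 42-3 medians were -0.16 for mitotic spindle and checkpoint genes, -0.25 for DNA replication, 0.81 for AP-1 and immediate early genes, 0.43 for ERK feedback genes and -0.44 for the integrated stress and unfolded protein response. Over all pairs the ERK feedback median was -0.11, or -0.41 without 42-3. The integrated stress median was -0.04, or 0.20 without 42-3. Site and the differing identity transcripts of that pair cannot be told apart.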

How the results depend on the processing

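The count of genes past the adjusted threshold was 0 in limma and in each of the 16 alternatives, edgeR included, with 562 to 997 genes at an unadjusted p under 0.05. The line is the block of the main fit. Without the replicate block 0 genes passed (562 unadjusted), and Gstt1 had the same difference of -3.22 with an exact permutation p of 0.0571. Leaving out 1 pair gave -2.62 to -4.09 for Gstt1, with an exact permutation p of 0.25, the smallest that 3 pairs allow. Of the 796 genes with an unadjusted p under 0.05, 35.8% were higher, against 46.5% after quantile normalization, which moved the median of all genes from -0.04 to 0.01. Cdkn1b reversed with 42-3 and 42-2 left out, from 0.88 to -0.071 in limma and -0.020 in edgeR. The median of the glutathione metabolism list was -0.13 and ran from -0.24 to 0.022 when 1 pair was left out, reversing without 42-3. The causes were not tested. Of 480 list medians under alternatives 32 moved by more than the spread between pairs. Line 42-2 held 8 reads of Gstt1 in its control (0.616 CPM), so that its ratio has a wide counting interval.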
